A study of Homo sapiens with 12 samples.

Results

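The androgen response of LNCaP prostate cancer cells was compared with and without silencing of serum response factor (SRF), gene by gene. For each gene the effect of the synthetic androgen R1881 (R1881 minus vehicle, in log2) was taken in control cells and in SRF-silenced cells, and the difference of the effects (silenced minus control) was tested. The genes were all those with a log2 signal above 4 on at least 3 of the 12 arrays, each represented by its brightest probe set, which gave 10265 of the 19775 genes on the array. Of these, 514 differed by at least 2-fold (adjusted p under 0.05) and were sorted into gained, lost, blunted, enhanced and reversed responses.

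LNCaP is an androgen-sensitive line derived from a human prostate adenocarcinoma. All cells were first kept under androgen deprivation for 48 h and then transfected with control siRNA or an siRNA directed against SRF, and 42 h later they received 5 nM R1881 or ethanol vehicle for 48 h. Each of the 4 groups had 3 arrays, called biological replicates in the labels without a statement on separate cultures. The p-values therefore rest on the spread of these arrays, which may be technical. The siRNA sequences are not given in the sources used here.

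Androgens bind the androgen receptor, which enters the nucleus, binds DNA and raises some genes, such as those of secreted prostate proteases, while lowering others, many of them active in growth. SRF binds a short DNA element called the CArG box and, with actin-sensing cofactors of the MRTF family or growth-factor-regulated cofactors of the TCF family, drives genes of the actin cytoskeleton and the immediate early response. The gene that silencing was aimed at was lower after SRF siRNA, as reported by 1 of its probe sets, while its other one was under 4 in every group. SRF stood at 6.07 and 6.30 (log2, means of 3 arrays) with control siRNA in vehicle and R1881 and at 4.74 and 4.87 with SRF siRNA. The silenced arrays did not overlap the control arrays, and the R1881 effect on SRF itself differed by -0.10 ± 0.20 (SE; limma adjusted p = 0.768).

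Arrays of a group correlated at 0.993 to 0.996 over the tested genes and arrays of different groups at 0.879 to 0.961. Of the luminal prostate markers on the array, 7 of 7 were above 4, whereas 3 basal and 3 leukocyte markers, among them KRT5 and PTPRC, were under 4 on every array. Of the fibroblast and mesenchyme markers 3 of 7 (VIM, COL1A1 and COL3A1) were above 4. Of 3 endothelial markers 1 was: VWF, the von Willebrand factor gene, stood at 6.11 and 4.61 in control cells and 5.27 and 4.51 in silenced cells (vehicle, R1881), while PECAM1 and CDH5 were under 4. The part of these markers in the results was not tested. As a measure of RNA integrity, the signal of the 3-prime GAPDH controls minus that of the 5-prime ones was 0.32 higher with R1881 in control cells (two-sided exact permutation p = 0.1, which no split of 3 and 3 arrays can go below) and 0.13 higher in silenced cells (exact permutation p = 0.3). Its part in the differences below was not tested apart from a fit that includes it as a covariate, described in the closing section.

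The R1881 response was altered by silencing in both directions and in all 5 classes. Limma called 2441 of the 10265 genes for the difference (23.8%), 1359 of them above 0 (13.2%) and 1082 below 0 (10.5%), and 514 differed by at least 2-fold (5.01%), 266 above 0 (2.59%) and 248 below 0 (2.42%). R1881 itself changed 60.6% of the genes in control cells and 53.1% in silenced cells at an adjusted p under 0.05, and 14.1% and 10.7% by at least 2-fold. The median difference over all genes was 0.03, and shifting the arrays to the same median lowered the share of called genes above 0 from 55.7% to 49.6%.

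The classes compare the smaller with the larger response of each of the 514 genes, and were set by these same values, so their counts are a description. A response was called lost when the silenced effect had at most 25% of the size of the control effect, in either direction, and gained in the opposite case. It was called blunted or enhanced when both effects ran one way and the smaller was more than 25% of the larger. It was called reversed when both effects were called, ran in opposite directions and the smaller was more than 25% of the larger. Where effects ran in opposite directions beyond 25% but the smaller was not called, the gene went to lost or gained. It was lost if the control effect was the larger, and gained otherwise. There were 146 blunted (28.4% of the 514), 139 lost (27.0%), 90 gained (17.5%), 75 enhanced (14.6%) and 64 reversed responses (12.5%). Further, 126 genes (1.23%) kept their response: R1881 changed them at least 2-fold in one direction in both states and the 95% interval of the difference lay within 0.5. Of the 743 genes changed at least 2-fold in one direction in both states, 323 were called for the difference, 129 of them at 2-fold or more.

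**Figure D1:**
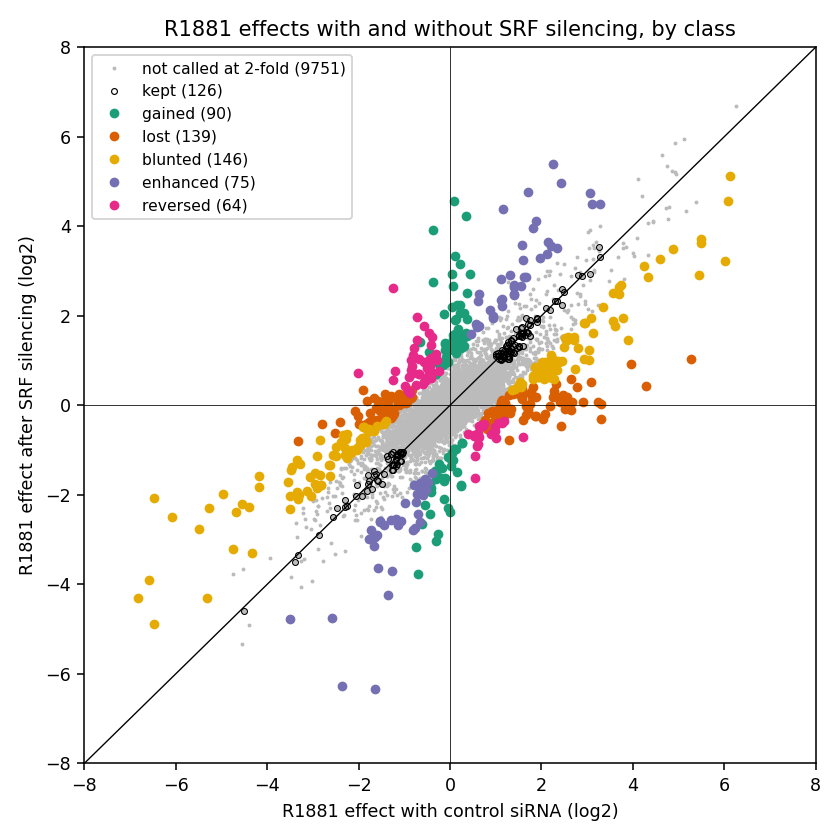
R1881 effect after SRF silencing (vertical axis, log2) against the R1881 effect with control siRNA (horizontal axis, log2), 1 point per gene for the 10265 genes, with the diagonal line marking equal effects. Coloured points are the 514 genes called at 2-fold or more by class, and open black circles are the 126 kept responses along the diagonal, while lost responses (139) lie along the horizontal and gained responses (90) along the vertical zero line.

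The values near the borders of the classes were close to each other. STEAP4, a metalloreductase gene, at R1881 effects of 6.12 and 5.12 (control, silenced), and HYAL3, a hyaluronidase gene, at -0.04 and 0.96, were the nearest genes inside the 2-fold limit. SSR2, at 1.00 and 0.00, and STRN, at 1.46 and 0.46, were the nearest outside. FAM216A, at -2.51 and -0.63, was the nearest inside lost, and PIERCE2, at 1.42 and 0.36, fell just into blunted. PTPN13, at -0.55 and -2.22, was the nearest inside gained, and TSLP, at -0.66 and -2.60, fell just into enhanced.

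Lost responses comprised 78 rises and 61 falls of control cells. ACTA2, the gene of smooth muscle actin and a classical SRF target, had levels of 5.57, 5.43 and 5.70 in control vehicle arrays, 8.20, 8.22 and 8.25 with R1881, 5.44, 5.56 and 5.61 in silenced vehicle arrays and 5.58, 5.34 and 5.37 in silenced R1881 arrays. Only the 3 control R1881 arrays stood apart, and the effects were 2.66 ± 0.09 and -0.11 ± 0.09 (SE; difference -2.77 ± 0.13, limma adjusted p = 6.43e-08). SLITRK6, which encodes a transmembrane protein of neurite outgrowth, stood at 4.26, 4.04 and 4.26 in control vehicle and 7.46, 7.45 and 7.55 in control R1881, and at 3.95, 3.95 and 4.01 and then 3.78, 3.74 and 3.49 in the silenced groups. Its rise of 3.30 was met by -0.30 ± 0.09 in silenced cells, a small fall that also passed the test (adjusted p = 0.014). The long noncoding RNA LINC00844 rose by 4.29 with control siRNA and by 0.42 in silenced cells, and SLC26A3, a chloride and bicarbonate exchanger gene, rose by 3.31 against 0.04 ± 0.10 (SE). For both, every group other than control R1881 averaged under 4, so their folds depend on the background estimate. The kinase gene SGK1, an early target of steroid hormones, rose by 2.51 with control siRNA and stood at -0.08 after silencing.

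CSGALNACT1, which starts chondroitin sulfate chains, reached the lost class by another route. It went from 5.62, 4.47 and 5.17 to 10.35, 10.37 and 10.39 in control cells and from 8.21, 8.34 and 8.50 to 9.34, 9.41 and 9.39 in silenced cells. The silenced vehicle arrays were thus already 3.26 above the control vehicle arrays, and the effects were 5.28 and 1.03 (difference -4.25 ± 0.30, SE).

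Among the lost falls, the largest difference was that of MYC, the growth-promoting transcription factor. Its levels were 10.85, 11.05 and 10.94 in control vehicle, 7.50, 7.75 and 7.61 in control R1881, 11.72, 11.59 and 11.62 in silenced vehicle and 10.83, 10.97 and 10.76 in silenced R1881. Only the control R1881 arrays were low. MYC fell by 3.33 ± 0.09 with control siRNA and by 0.79 ± 0.09 after silencing, which still passed the test (SE; difference 2.54 ± 0.12, adjusted p = 7.71e-08). SDC2, a heparan sulfate proteoglycan gene, fell by 1.91 with control siRNA and stood at 0.34 after silencing, and DGAT2, an enzyme gene of triglyceride synthesis, fell by 2.42 and stood at -0.37. HS6ST2, a heparan sulfate sulfotransferase gene, fell by 2.80 in control cells, and its silenced vehicle level of 3.52 was already near its control R1881 level of 3.18.

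Some genes passed the signal filter through the arrays of 1 group alone, which is a choice by the difference itself, so their number is no support for it. This held for 100 of the 10265 genes, 83 of them called, and for 68 of the 514, among them 29 lost and 29 gained genes such as SLC26A3 and SERPIND1, and for no reversed gene.

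A lost response does not mean that no effect was left. The silenced effect was not called for 118 of the 139 lost genes, and its 95% interval lay within 0.5 of 0 for 68. Likewise, the control effect was not called for 71 of the 90 gained genes and was within 0.5 for 40.

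Blunted responses held 75 rises and 71 falls, and many of them were large in both states. NCAPD3, a condensin subunit gene, stood at 7.10, 6.98 and 6.97 in control vehicle and at 12.49, 12.47 and 12.45 in control R1881. In silenced cells it stood at 7.76, 7.62 and 7.59 and then at 10.48, 10.58 and 10.66. None of the 4 groups overlapped, and the silenced effect of 2.92 was 53.4% of the control effect of 5.46 (difference -2.54 ± 0.10, SE; adjusted p = 3.64e-08). F5, the gene of coagulation factor V, rose by 6.03 and 3.23, the tight junction gene CLDN8 by 3.05 and 1.02, and ATRNL1 by 3.89 and 1.47. WNT7B, a Wnt ligand gene, rose by 2.74 with control siRNA and stood at 0.82 ± 0.35 (SE) after silencing, where the groups overlapped (4.86, 4.41 and 5.21 against 5.04, 5.60 and 6.29).

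The blunted falls were led by CAMK2N1, whose product inhibits CaM kinase II. It fell from 10.61, 10.89 and 10.78 to 4.07, 4.24 and 4.51 in control cells and from 12.53, 12.60 and 12.54 to 10.47, 10.43 and 10.60 in silenced cells. Its silenced R1881 arrays lay close to its control vehicle arrays, and its difference was 4.42 ± 0.16 (SE; adjusted p = 1.04e-08). Its 2 other probe sets gave 4.31 and 3.21. LRRN1, a leucine-rich repeat membrane protein gene, fell by 5.28 and 2.29. The nucleotide synthesis genes RRM2 and TYMS fell by 4.96 and 4.18 with control siRNA and by 1.97 and 1.59 in silenced cells. MMP16, a membrane metalloproteinase gene, had a difference of 3.57, but its 4 other probe sets ranged from -0.93 to 1.35 and only that at 1.35 was called. For blunted falls the scale matters: on the linear signal, 51 of 71 kept their direction, and silencing had also raised the vehicle level of genes such as CAMK2N1.

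Gained responses were 56 rises and 34 falls. SERPIND1, which encodes the thrombin inhibitor heparin cofactor, was between 2.06 and 2.35 on the 9 arrays of the other groups and at 6.92, 6.57 and 6.74 on the silenced R1881 arrays, so that it appeared above background in that group alone. Its effects were 0.08 and 4.56 (difference 4.49 ± 0.14, SE). SERPINE2, a protease inhibitor gene of the same family, was at 5.10, 4.65 and 4.14 and at 4.67, 4.21 and 3.90 in control cells, and at 3.34, 4.33 and 4.27 and then 7.67, 8.26 and 7.77 in silenced cells. The chemokine gene CCL20 rose by 3.34 in silenced cells and was at 0.11 in control cells, and SERHL2 stood at 4.23 and 0.35.

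For other gained rises the silenced vehicle level was the one that stood apart. GPR158, an orphan-family G protein-coupled receptor gene, was at 9.77, 9.77 and 9.84 and at 10.03, 9.92 and 9.89 in control cells, at 7.13, 7.21 and 7.19 in silenced vehicle and at 9.40, 9.33 and 9.50 in silenced R1881. Silencing alone lowered it by 2.62, and R1881 brought it to 0.54 below its control R1881 level. CRYM, which encodes a thyroid hormone binding protein, followed the same course, at 7.38 and 7.43 in control cells and 5.52 and 7.72 in silenced cells (means, vehicle and R1881). TTR, the transthyretin gene, was at 6.13 and 5.77 in control cells and at 2.70 and 5.45 in silenced cells. With values under 4 set to 4, its silenced rise was 1.45 in place of 2.75 and its difference 1.81 in place of 3.11.

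The gained falls began mostly from vehicle levels that silencing had raised. PTPRB, a receptor tyrosine phosphatase gene, was at 2.67, 2.88 and 2.83 in control vehicle and 5.42, 5.45 and 5.45 in silenced vehicle. The R1881 arrays of both states lay between 2.52 and 2.59. PTPRB thus passed the signal filter through the silenced vehicle arrays alone, so its entry into the test favoured a difference below 0. SOX11, a developmental transcription factor gene, and REG4, a secreted lectin gene, had silenced effects of -3.03 and -3.78. Their control effects of -0.30 and -0.70 also passed the test but lay among values under 4, where folds depend on the background estimate. With values under 4 set to 4, the control effects of PTPRB, SOX11 and REG4 were 0. Their silenced effects were then -1.44, -1.46 and -3.70. GBP2, an interferon-induced GTPase gene, differed from these in being lower after silencing in both treatments, by 1.22 in vehicle and by 3.26 in R1881.

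Enhanced responses were 37 rises and 38 falls. MAF, a transcription factor gene, rose from 8.36, 8.31 and 8.39 to 11.41, 11.32 and 11.51 in control cells and from 7.82, 7.64 and 7.76 to 12.43, 12.55 and 12.49 in silenced cells. The silenced arrays were the lowest in vehicle and the highest in R1881, and the difference was 1.70 ± 0.10 (SE; adjusted p = 6.43e-07). AQP3, a water and glycerol channel gene, ended at the same R1881 level in both states (11.40 and 11.37) from vehicle levels of 9.80 and 8.12. SERPINA3, an acute-phase protease inhibitor gene, NBL1, a BMP antagonist gene, and the transcriptional repressor gene SNAI2 rose by 4.38, 4.77 and 4.98 in silenced cells and by 1.16, 1.72 and 2.42 in control cells.

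The enhanced falls included peptide hormone genes. GCG, the glucagon gene, was at 4.71, 3.28 and 3.83 in control vehicle, 8.47, 8.60 and 8.99 in silenced vehicle, and between 2.18 and 2.44 on all 6 R1881 arrays. NTS, the neurotensin gene, likewise ended at 2.54 and 2.52 from vehicle means of 4.91 and 8.78. With values under 4 set to 4, both were classed as gained, at effects of -0.24 and -4.69 for GCG and -0.91 and -4.78 for NTS. GRAMD1C, a sterol transport protein gene, had every group mean above 4 and fell by 2.59 and 4.75. MYLK and TOX3 were likewise above 4, with effects of -0.80 and -2.79, and -1.08 and -2.59.

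Reversed responses combined small effects of opposite sign in brighter genes than the other classes: 57 of 64 had all 4 group means above 4, against 314 of all 514. R1881 raised 23 of them in control cells and lowered them in silenced cells (median effects 0.70 and -0.64), and did the opposite for 41 (-0.58 and 0.77). ZPLD1, which encodes a zona pellucida domain protein, was the only one changed at least 2-fold both ways. It stood at 6.26, 6.31 and 5.99 and then 5.02, 5.24 and 4.54 in control cells, and at 4.50, 4.19 and 4.42 and then 6.75, 7.04 and 7.20 in silenced cells. R1881 lowered it by 1.25 ± 0.17 in the first and raised it by 2.63 ± 0.17 in the second (SE; adjusted p of the difference = 7.14e-07). ADRA2A, an adrenergic receptor gene, moved by -2.01 and 0.72, the trefoil peptide gene TFF1 by -0.72 and 1.98, and TYRP1, an enzyme gene of melanin synthesis, by -0.56 and 1.76. PIK3R1, the regulatory subunit gene of PI3 kinase, moved by -1.25 and 0.58, and its 2 other probe sets also differed, by 1.68 and 1.63. ANKRD22 and RHOBTB3 moved the other way, at 1.60 and -0.72, and at 0.54 and -1.63.

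The kept responses give the contrast to these classes. ELL2, a transcription elongation factor gene, rose by 3.28 and 3.31 (difference 0.03 ± 0.13, SE; 95% interval -0.27 to 0.32), and STK39, a kinase gene of ion transport regulation, by 2.89 in both states (difference 0.00, interval -0.32 to 0.33). STK39 was nevertheless 2.26 lower after silencing in both treatments, so an equal R1881 effect stood beside a changed level. PMEPA1, an inhibitor gene of TGF-beta signalling, rose by 3.06 and 2.93, and DIPK2A by 2.80 and 2.91. The kept falls were led by ADAM2, at -2.87 and -2.90, PIK3R3, at -2.47 and -2.30, and NAIP, at -2.30 and -2.26. KLK3, the gene of prostate-specific antigen, met the rule for kept and was also called for a small difference, 0.27 ± 0.09 (SE; adjusted p = 0.0372), with rises of 3.26 and 3.54. Without 11 of the 12 arrays in turn that call was lost.

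**Figure D2:**
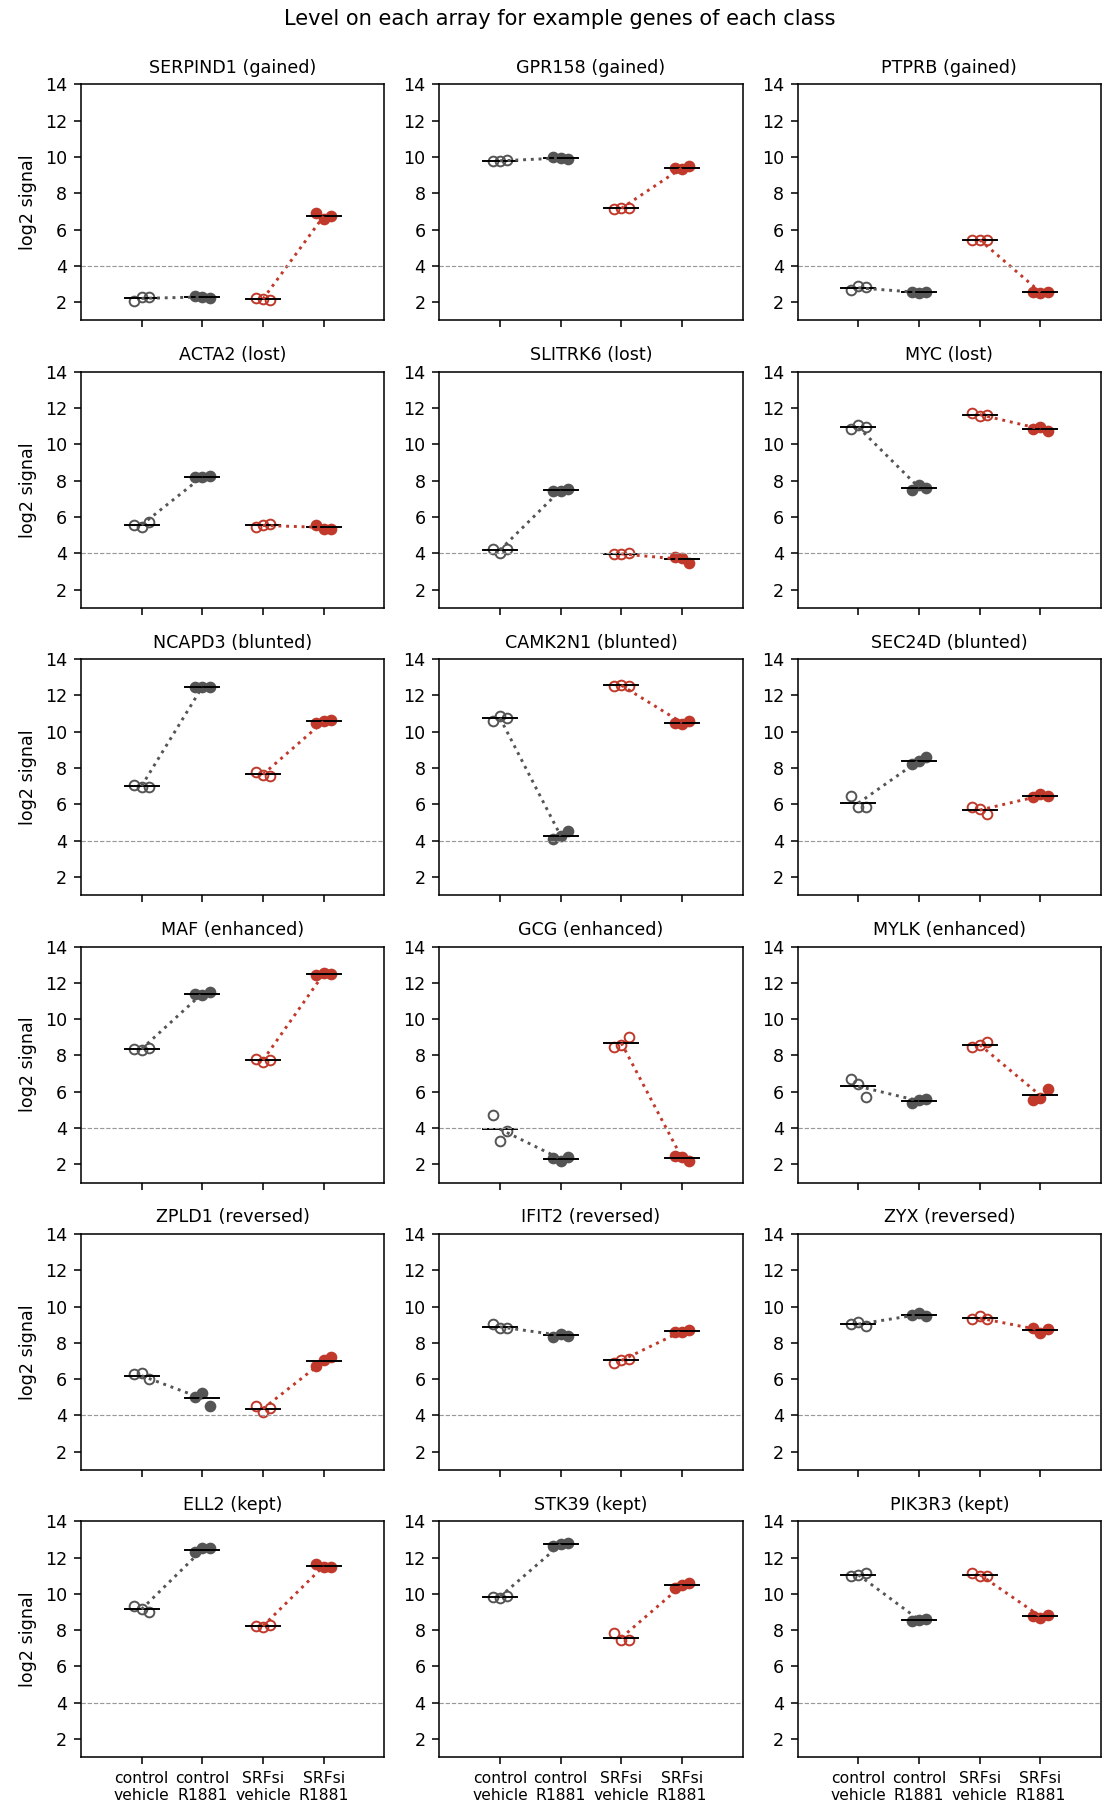
Log2 signal on each of the 12 arrays (points), with group means (bars), for 3 genes of each class and 3 kept genes. Grey points are control siRNA and red points SRF siRNA (SRFsi), open for vehicle and filled for R1881, and the dashed line marks a log2 value of 4. SERPIND1 is high in silenced R1881 alone, ACTA2 in control R1881 alone, and GCG in silenced vehicle alone.

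The difference of effects is also the effect of silencing in R1881 minus that in vehicle, which divides the genes by where the groups part. For 317 of the 514 genes silencing moved the R1881 level more than the vehicle level, and for 197 the vehicle level more. Lost rises (61 of 78) and gained rises (44 of 56) were mostly of the first kind, as ACTA2 and SERPIND1 were. Enhanced falls (31 of 38) and gained falls (24 of 34) were mostly of the second kind, as GCG and PTPRB were. These counts include genes that passed the signal filter through 1 group alone, so that the filter favoured the group that stood apart. Among lost genes 21 passed through control R1881 and 8 through control vehicle alone. Among gained genes, SERPIND1 and PTPRB included, 18 passed through silenced R1881 and 11 through silenced vehicle alone. For enhanced genes these were 2 and 4. The splits without such genes were not worked out. Median levels of the 38 enhanced falls were 4.83 and 3.51 in control cells and 6.51 and 3.92 in silenced cells (vehicle, R1881), and those of the 78 lost rises 5.16 and 6.80, and 5.55 and 5.36.

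**Figure D3:**
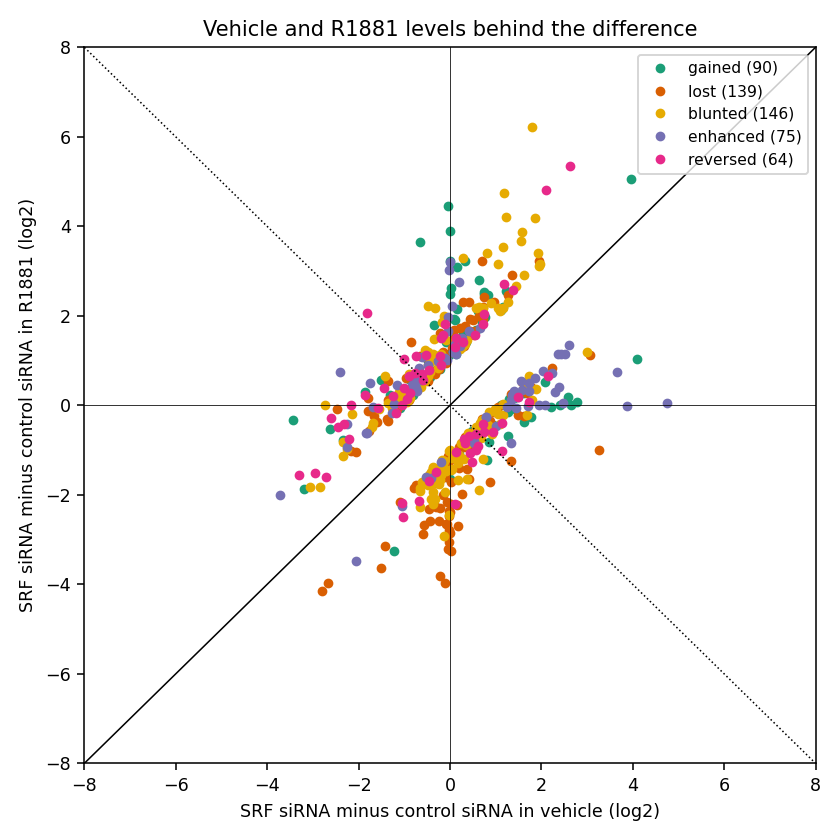
SRF siRNA minus control siRNA in R1881 (vertical axis, log2) against the same in vehicle (horizontal axis, log2) for the 514 genes called at 2-fold or more, coloured by class. Genes near the vertical zero line were moved by silencing in R1881 alone and genes near the horizontal zero line in vehicle alone, the solid diagonal marks no difference of R1881 effects, and the dotted diagonal marks equal and opposite movements.

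Gene lists were described by their counts and medians beside those of all genes (23.8% called, median difference 0.03). Cytoskeletal targets of SRF and MRTF were called in 15 of 25 genes, 11 below 0 and 4 above 0, with a median of -0.22. All 5 that passed 2-fold were below 0: ACTA2, MYLK (myosin light chain kinase, -1.99 ± 0.30, SE), CCN1 (a matricellular protein, -1.44 ± 0.16), ZYX (zyxin of focal adhesions, -1.18 ± 0.13) and CNN2 (an actin-binding calponin, -1.14 ± 0.11). They were not of one class. ACTA2, CCN1 and CNN2 lost a rise, of 1.59 for CCN1 and 1.15 for CNN2, while ZYX rose by 0.53 in control cells and fell by 0.66 in silenced cells. MYLK fell in both, from 6.71, 6.45 and 5.74 to 5.37, 5.52 and 5.60 with control siRNA and from 8.48, 8.56 and 8.72 to 5.57, 5.68 and 6.14 after silencing. Its silenced vehicle arrays were thus above all others. The members above 0, the cytoskeletal genes TLN1, TAGLN2, CALD1 and PDLIM5, lay between 0.54 and 0.60.

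Of the 22 list members with a promoter in the RefSeq table (GRCh38.p14), 4 held an exact CArG box (CC, then A or T at 6 bases, then GG; 18.2%) in the 250 bases before the start, on either strand, against 0.916% of the 8514 promoters of all tested genes and 2.26% of the 398 of the 2-fold genes. The promoters of MYLK (chr3:123620549-123620798, minus strand, box beginning 94 bases before the start) and CNN2 (chr19:1026358-1026607, plus strand, 89 bases before) are shown, with the box in capitals, as the listed genes past 2-fold that hold an exact match. ACTA2 and ZYX had no exact match in this window, and 3 of the 14 called members with a promoter matched. A match is a description of letters, and whether SRF bound there was not measured. Only the first promoter listed for each gene was searched. Whether the one shown for MYLK starts the kinase transcript or another transcript of the gene was not checked.

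MYLK: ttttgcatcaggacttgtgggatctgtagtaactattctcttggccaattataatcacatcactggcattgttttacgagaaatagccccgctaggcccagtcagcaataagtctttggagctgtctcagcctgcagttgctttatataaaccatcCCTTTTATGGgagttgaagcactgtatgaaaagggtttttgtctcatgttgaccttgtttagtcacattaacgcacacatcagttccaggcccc

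CNN2: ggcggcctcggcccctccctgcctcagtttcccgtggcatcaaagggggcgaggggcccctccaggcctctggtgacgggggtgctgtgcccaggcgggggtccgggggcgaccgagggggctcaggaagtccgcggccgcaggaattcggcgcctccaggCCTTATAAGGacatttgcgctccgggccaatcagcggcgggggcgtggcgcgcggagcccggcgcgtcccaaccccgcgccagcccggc

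Interferon response and antigen presentation genes were called in 29 of 36, 27 above 0 and 2 below 0, with a median of 0.75, and 17 passed 2-fold (15 above, 2 below). These genes are normally switched on by interferon through STAT and IRF factors that bind the interferon-stimulated response element. Their median R1881 effects were -0.25 in control cells and 0.76 in silenced cells, and 10 of them were reversed, 5 gained and 2 lost. IFIT2, an antiviral RNA-binding protein gene, was at 9.01, 8.80 and 8.82 and then 8.35, 8.49 and 8.39 in control cells, and at 6.91, 7.08 and 7.09 and then 8.62, 8.59 and 8.71 in silenced cells. The silenced vehicle arrays stood below all others, and the effects were -0.47 ± 0.08 and 1.62 ± 0.08 (SE; adjusted p of the difference = 2.93e-07). RSAD2, the viperin gene, moved by -0.72 and 1.46, IFIT3 by -0.78 and 1.28, and OASL by -1.20 and 0.77. The transcription factor gene IRF1 was at -0.10 and 1.39 and the factor gene IRF9 at -0.57 and 0.52. The other IRF1 probe set that passed the signal filter gave a difference of -0.17, which was not called. The guanylate-binding protein gene GBP1 went against the list. It was at 3.19, 3.47 and 3.56 in control vehicle, 6.98, 6.45 and 6.50 in control R1881, and between 3.20 and 3.54 in the 6 silenced arrays, so that it was raised in control R1881 alone (difference -3.16 ± 0.20, SE). Its 2 other probe sets gave -2.34 and -2.04. GBP1 passed the signal filter through the control R1881 arrays alone, so its entry into the test favoured a difference below 0. Of the other 35, 27 were called above 0 and 1 below, 16 at 2-fold or more, with a median of 0.76.

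The core of the interferon element, TTTCNNTTTC, was found on either strand in the promoters of 17 of 30 list members (56.7%), against 2.22% of those of all tested genes, 4.52% of those of the 2-fold genes and 10.7% of those of the reversed genes. The 2-fold and reversed genes include list members that hold the element, such as IFIT1, IFIT3 and OAS3. Of the 24 called list members with a promoter, 13 held it (54.2%), which is no higher than in the whole list. The promoters of GBP1 and IFIT3 are shown, with the element in capitals. That of GBP1 (chr1:89065209-89065458, minus strand) held it beginning 127 bases before the start. That of IFIT3 (chr10:89327747-89327996, plus strand) held it beginning 156 and 122 bases before. These genes had the largest differences among the list members past 2-fold that held the element, and they differed in opposite directions.

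GBP1: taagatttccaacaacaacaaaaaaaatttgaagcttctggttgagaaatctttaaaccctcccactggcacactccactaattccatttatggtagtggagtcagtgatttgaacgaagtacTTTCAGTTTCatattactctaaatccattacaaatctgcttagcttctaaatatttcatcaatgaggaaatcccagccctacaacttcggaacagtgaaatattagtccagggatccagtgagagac

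IFIT3: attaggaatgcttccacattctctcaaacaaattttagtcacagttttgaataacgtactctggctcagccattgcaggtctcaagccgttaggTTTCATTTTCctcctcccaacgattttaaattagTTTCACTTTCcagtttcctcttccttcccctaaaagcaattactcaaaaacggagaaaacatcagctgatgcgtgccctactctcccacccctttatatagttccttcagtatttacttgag

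Targets of NF-kappa-B and chemokine genes were called in 10 of 20, all 10 above 0, with a median of 0.82, and 7 passed 2-fold. NF-kappa-B is a family of transcription factors of inflammation, with RELB and NFKB2 as members of its noncanonical branch. RELB stood at 0.36 and 2.51, NFKB2 at 0.95 and 2.00, the chemokine genes CXCL8 and CXCL10 were at 0.06 and 2.67 and at 2.24 and 5.40, and SOD2, a mitochondrial antioxidant enzyme gene, was at -0.65 and 1.42. RELB, CXCL8 and CCL20 passed the signal filter through the silenced R1881 arrays alone, so their entry into the test favoured a difference above 0. Of the other 17, 7 were called above 0 and 0 below, 4 at 2-fold or more, with a median of 0.70. Of the 20, 10 had a group mean under 4, where folds depend on the background estimate. The 10 not called included RELA, NFKB1, NFKBIA and TNFAIP3.

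Genes of entry into the endoplasmic reticulum (ER) and of ER-Golgi transport showed many small differences in one direction. Of 56 tested, 36 were called and all 36 were below 0, with a median of -0.44 against 0.03 over all genes, although only 2 passed 2-fold. Median R1881 effects were 0.66 in control cells and 0.23 in silenced cells. SEC24D, a cargo-binding subunit of the COPII vesicle coat, was at 6.49, 5.88 and 5.84 and then 8.22, 8.42 and 8.62 in control cells, and at 5.84, 5.77 and 5.46 and then 6.39, 6.59 and 6.44 in silenced cells. Its control R1881 arrays were above all others (difference -1.56 ± 0.24, SE; adjusted p = 0.000595). CREB3L2, a membrane-bound transcription factor gene of secretory capacity, rose by 1.92 and 0.64. Of the translocon-associated proteins, SSR3 rose by 1.59 and 0.68, and SSR2 rose by 1.00 with control siRNA and stood at 0.00 after silencing. The translocon gene SEC61B, the signal recognition particle gene SRP54 and the COPI coat gene COPA had differences of -0.59, -0.45 and -0.41.

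ER folding and unfolded protein response genes were called in 20 of 36, 19 below 0 and 1, CALR, above 0, with a median of -0.42. The cofactor gene SDF2L1 stood at 7.65, 7.75 and 7.53 and then 9.54, 9.51 and 9.36 in control cells, and at 7.38, 7.31 and 7.30 and then 7.71, 7.70 and 7.81 in silenced cells, with only control R1881 set apart by over 1 log2 unit. DNAJB9 and EDEM3, which act in ER quality control, rose by 2.49 and 2.51 with control siRNA and by 1.30 and 1.50 in silenced cells, and WFS1, the wolframin gene, rose by 1.39 and was at 0.24. All 36 folding and all 56 entry genes had every group mean above 4. Promoters of 7 of 34 folding genes held the ER stress element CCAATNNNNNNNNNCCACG (20.6%), against 0.164% of all tested genes, but none of the 4 past 2-fold did.

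**Figure D4:**
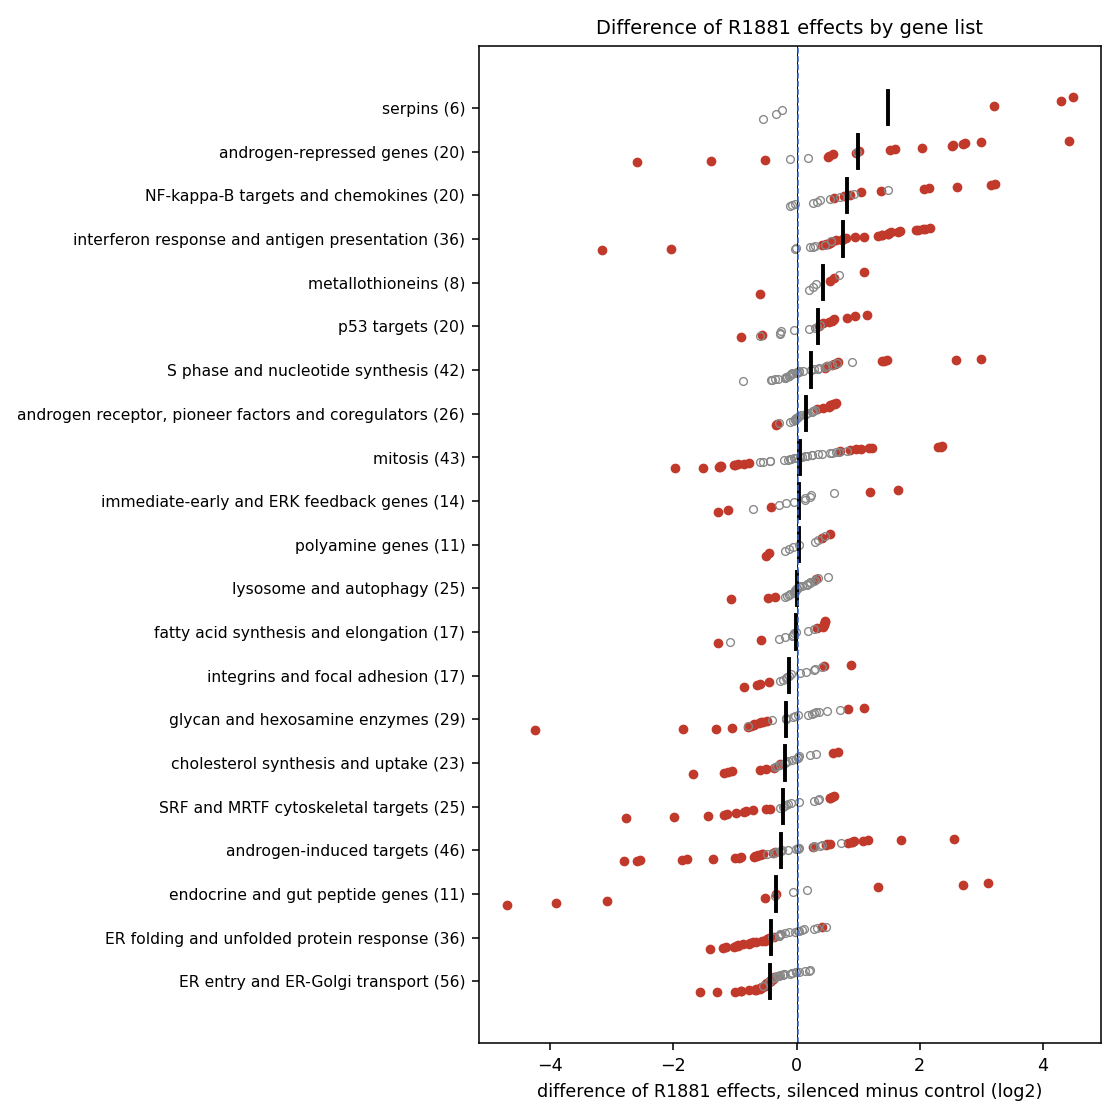
Difference of R1881 effects (silenced minus control, log2) for each tested member of 21 gene lists, with the number of tested members in brackets. Red points were called, open grey points were not, black bars are list medians and the dashed blue line is the median of all genes, 0.03. The interferon list has 27 called members above 0 and 2 below, and the ER entry list has 36 below and 0 above.

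Classical androgen targets did not move as a block. Of 46 androgen-induced targets 30 were called, 12 above 0 and 18 below, and 11 passed 2-fold, 5 blunted, 3 enhanced, 2 lost and 1 gained, while 6 were kept. KLK2, a kallikrein protease gene, rose by 4.94 and 5.87, and FKBP5, a steroid receptor co-chaperone gene, by 4.76 and 4.17. SLC15A2, a peptide transporter gene, and EAF2, an elongation factor partner gene, rose by 5.49 each with control siRNA and by 3.64 and 3.71 in silenced cells. ELL2, PMEPA1 and TMPRSS2, a membrane protease gene, were among the 16 not called. Of 20 androgen-repressed genes 17 were called, 14 above 0 and 3 below, and 10 of the 12 past 2-fold were blunted and 2 lost. ABCG2, a drug efflux transporter gene, fell by 5.50 and 2.76, from vehicle levels of 7.83 and 5.10 to 2.34 in both states, so its smaller fall came with a lower start. BCHE, butyrylcholinesterase, fell by 6.60 and 3.90 and ended at 2.47 and 4.70. IGFBP3, a binding protein gene for insulin-like growth factors, and UGT2B28, an androgen-conjugating enzyme gene, rose with R1881 in control cells (by 3.10 and 4.88, against 0.51 and 3.49 after silencing), contrary to the name of the list.

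Of 42 genes of S phase and nucleotide synthesis 12 were called (28.6%, near the 23.8% of all genes), all 12 above 0, with a median of 0.24, and the replication helicase genes MCM2, MCM3, MCM4, MCM6 and MCM7 differed by 0.45 to 0.66. PRIM2, a primase subunit gene, was at 0.07 and 1.48, and for the other 11 the R1881 effect was below 0 in both states and nearer to 0 after silencing. Mitosis genes differed in both directions: of 43, 9 were above 0 and 11 below (median 0.06), with 6 blunted, 6 enhanced and 1 gained. BUB1B, NUSAP1 and PTTG1, genes of the spindle checkpoint, spindle and sister chromatid separation, fell by 4.18, 4.56 and 4.67 with control siRNA and by 1.82, 2.21 and 2.38 in silenced cells. ASPM, a spindle pole gene, fell by 0.77 and 2.75, and KIF2C and CENPF of the kinetochore fell by 1.14 and 2.66 and by 1.44 and 2.67. A group mean was under 4 for 30 of the 43, ASPM and BUB1B included, so their falls depend on the background estimate. With values under 4 set to 4, BUB1B differed by 0.87 in place of 2.36 and UHRF1, a blunted S phase gene, by 0.54 in place of 1.47. NUSAP1 and PTTG1 then differed by 1.19 and 1.24 in place of 2.34 and 2.29, and ASPM by -1.70 in place of -1.98. Another probe set of NUSAP1 gave a difference of 0.90. Further, 6 mitosis genes passed the filter through the silenced vehicle arrays alone, and without them 9 of 37 were above 0 and 7 below.

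Of 29 glycan and hexosamine enzymes 14 were called, 12 below 0 and 2 above. UGDH, which makes the UDP-glucuronate used for glucuronidation and for proteoglycan chains, rose by 2.33 and 0.48, from vehicle means of 8.13 and 9.75 to 10.46 and 10.23. GFPT1, GNPNAT1 and UAP1 of the hexosamine pathway differed by -1.05, -0.74 and -0.69. Cholesterol genes were called in 10 of 23, with 8 below 0, among them STARD4, a sterol transporter gene, at 1.66 and -0.02, and SCAP and INSIG1 of the sterol sensing complex at 2.21 and 1.03 and at 2.95 and 1.84. INSIG2, by contrast, fell, by 1.73 and 2.79. Of 14 immediate-early and ERK feedback genes 5 were called: NR4A1 and PHLDA1 rose less after silencing (2.17 and 0.90, and 1.58 and 0.47), MCL1 was also below 0, and JUNB and SPRY1 fell in control cells and rose in silenced cells (-0.75 and 0.45, and -0.85 and 0.79). The second probe set of PHLDA1 gave a difference of -0.03.

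The list of p53 targets was called in 11 of 20, 9 above 0 and 2 below, with a median of 0.35. DDB2 and XPC, of DNA damage recognition, and the kinase gene PLK2 had R1881 effects of -1.59 and -0.46, -0.99 and -0.18, and -2.13 and -1.18 (control, silenced), while the death receptor gene TNFRSF10B rose by 1.69 and 0.78. Peptide genes were called in 8 of 11 (3 above and 5 below 0), and GCG, NTS, REG4, TTR and TFF1 among them are described above. Of 6 serpins 3 were called, all above 0, but SERPIND1 and SERPINA3 passed the signal filter through the silenced R1881 arrays alone, and of the other 4 only SERPINE2 was called. Also called were 8 of 17 fatty acid genes (6 above), 4 of 8 metallothioneins (3 above), 4 of 11 polyamine genes, 6 of 17 integrin and focal adhesion genes, and 10 of 26 genes of androgen receptor coregulators and pioneer factors (8 above). Lysosome and autophagy genes were called in 4 of 25, a lower share than the 23.8% of all genes.

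Among other probe sets of the 514 genes, 291 in 201 genes also passed the signal filter, and 264 of them gave the same sign, 208 with a call and 169 at 2-fold or more. A call of opposite sign was found for 3 genes, STXBP5L, BIRC5 and IL1RN, for which the value of the brightest probe set does not stand for the gene as a whole. BIRC5, a mitotic survival factor gene, was at 1.18 by the one used and at -2.11 by the other.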

How the data were processed

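LNCaP cells on 12 arrays, 3 per group, were analysed from the deposited table of log2 signals, 1 value per probe set and array, which the authors made with GCRMA per the submitters' processing notes (version not given). GCRMA corrects for background, so dim probe sets lie near 2 to 3 and folds from them depend on that estimate. Groups were taken from the labels. Biotinylated cRNA came from 3.5 µg of total RNA, per the labels' protocols. Of 54675 probe sets, 62 controls, 11721 without a symbol and 1801 with several were left out of the gene tests, and 41091 had 1 symbol. Of 41091, 41037 were named through the gene number and 54 from the platform table. Those above a log2 value of 4 on at least 3 arrays were kept, and the highest mean stood for the gene. Array medians were 2.97 to 3.06 and no further normalization was applied. The number of arrays limits the precision.

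A means model of all 4 groups was fitted with limma 3.58.1 in R 4.3.3 (eBayes, Benjamini-Hochberg over 10265 genes, adjusted p under 0.05), and its code was tested on simulated data. SE is the moderated standard error. The classes use a difference of at least 1 on the log2 scale and a ratio bound of 0.25. Named genes were, by rule, the 4 with the largest difference per class and direction, the 3 largest with all group means above 4, the 5 largest kept rises and falls, 2 to 4 called members per list, SRF and the genes nearest the class borders; others in the text are list members or were picked after their values were seen. The members, lists and rules were chosen with earlier results of these data known. Promoters are RefSeq sequences of GRCh38.p14, the first listed for each gene, searched for exact motif matches on both strands. Same-numbered arrays of different groups did not deviate together (0 of 18 pairs with a correlation over 0.1), so no pairing was used. The highest correlations joined differently numbered arrays. Control vehicle 1 and silenced vehicle 3 stood at 0.207, and control vehicle 3 and silenced vehicle 1 at 0.199. Whether these arrays shared a preparation was not tested. Alternatives were other filters, a floor at 4, the mean of probe sets, scaling, quantile normalization, eBayes settings, thresholds, the linear scale, a replicate block and leaving out each array. A GAPDH covariate was added after seeing the data. Figures used matplotlib 3.10.9.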

Additional observations from a re-analysis of the deposited data

Results flagged for a closer look

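The R1881 effect differed between silenced and control cells for 2441 genes, 514 of them by at least 2-fold, by the limma test of the difference itself. R1881 moved the 64 reversed genes in opposite directions with and without silencing, each effect passing the test. The differences for the 4 with the largest value in each direction of the larger effect were 3.88 for ZPLD1, 2.73 for ADRA2A, 2.71 for TFF1, 2.32 for TYRP1, 1.96 for OASL and 1.83 for PIK3R1. ANKRD22 and RHOBTB3, which rose with control siRNA and fell after silencing, had differences of -2.32 and -2.17. RSAD2, IFIT2 and IFIT3, with larger effects upward, had differences of 2.17, 2.08 and 2.06, which exceeded those of OASL and PIK3R1.

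Probe sets outside the gene tests also differed. Of 2850 that passed the signal filter without exactly 1 gene symbol, 499 were called for the difference and 140 at 2-fold or more, with values from -3.17 to 3.64. Of the 10265 tested genes, 2441 (23.8%) were called and 514 (5.01%) at 2-fold or more. Neither share was higher among these probe sets than among the genes.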

How the results depend on the processing

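The count of genes called for the difference, and those called at 2-fold and kept, stayed within 1.5 times the stated ones under every alternative but 1: at an adjusted p under 0.01, 1367 genes were called. The classes moved with the strict filter (log2 above 6), to 43 gained and 89 lost, all 43 and all 89 among the stated ones. With values under 4 set to 4, 44 of the 75 enhanced genes stayed enhanced and 18 went to another class at 2-fold, GCG, NTS and SERPINA3 among them, which became gained. The gained, lost, blunted and reversed classes shared 71, 117, 111 and 62 genes with the stated ones. Classing every called gene whatever its size gave 396 gained, 686 lost, 861 blunted, 327 enhanced and 157 reversed responses. Leaving out each array in turn gave 2023 to 2338 called, 508 to 526 at 2-fold, 86 to 107 gained, 133 to 146 lost, 130 to 154 blunted, 69 to 91 enhanced, 60 to 69 reversed and 103 to 123 kept responses. With the replicate number as a block, which the arrays do not bear out as a pairing (correlations -0.214 to 0.0994, 2 of 12 arrays closest to their own number), 2200 genes were called, 513 at 2-fold. With GAPDH integrity as a covariate, an alternative added once the data had been seen, 1911 were called, 541 at 2-fold, and 44 were reversed, 33 of them among the 64; the cause was not tested. Over the alternatives, 3205 values of the 138 named genes kept direction and side of the threshold, 75 lost the call and 15 reversed. WNT7B, STEAP4, GCNT2 and FERMT2 lost it without a filter. KLK3 had a difference of -0.058 by the mean of its probe sets. On the linear signal, which weighs genes by level, the sign turned for CAMK2N1 (-2878), MMP16 (-441), LRRN1 (-3.04), RRM2 (-297), TYMS (-205), KLK3 (-12726), BUB1B (-68.5), NUSAP1 (-318), PTTG1 (-286), UHRF1 (-116), ELOVL7 (-395), MT1X (-326), MT2A (-626) and CCND1 (-50.7). Signal over background limits the 200 of the 514 genes with a group mean under 4.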

Other observations

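Some of the genes with a 2-fold difference lie next to each other in the order of tested genes on the RefSeq assembly. Of 10235 adjacent pairs, 39 (0.381%) had both genes at 2-fold, 30 of them with the same sign. Of all tested genes 5.01% were at 2-fold, and the number of such pairs under random placement was not worked out. Some pairs are members of 1 gene family, such as IFIT2 and IFIT3 or CXCL10 and CXCL11. The count is therefore a description and no measure of clustering. The longest run named here, picked after the values were seen, holds NCAPD3, VPS26B, THYN1 and ACAD8, at -2.54, -1.46, -1.52 and -1.45. The guanylate-binding protein genes GBP3, GBP1 and GBP2 are also neighbours, at 1.90, -3.16 and -2.04, so adjacent members of 1 family differed in opposite directions. Long noncoding RNAs made up 11 of the 139 lost genes (7.91%), 1 of the 90 gained genes (1.11%) and 3.22% of all tested genes, values given as a description.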
